A study of Mus musculus with 5 samples.

Results

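The leukocyte miRNAs of this report are the mature products of 3 mouse genes, Mir223, Mir142 and Mir150. All probes named mmu-miR-223, mmu-miR-142a or mmu-miR-150 with a 5p or 3p suffix were taken, which gave 6 miRNAs of the 1900 on each array. After quantile normalization, miR-223-3p, miR-142a-5p and, on days 3 and 7, miR-142a-3p were at least 2-fold higher in aged wounds than in unwounded aged skin. All 3 were at least 3.73-fold lower in unwounded aged skin than in unwounded young skin. In the 13 other settings all 3 stayed at least 2-fold lower with age, miR-142a-5p by as little as 2.17-fold. miR-150-5p differed by less than 2-fold in each of these 4 comparisons after quantile normalization, but the size of its age difference depended on the scaling (at least 2-fold lower in 4 of 13 other settings). All 4 comparisons use the 1 aged D0 array. The arms miR-223-5p and miR-150-3p were bright on 0 arrays.

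The series measured miRNAs in back skin of female mice during repair of a full-thickness punch wound 3 mm across, made while the hair follicles were at rest (telogen). The 5 conditions were unwounded skin of 2-year-old mice (aged D0), wounds of 2-year-old mice 3, 5 and 7 days after wounding (aged D3, aged D5, aged D7) and unwounded skin of 8-week-old mice (young D0). Each condition was hybridised to 1 array, so values carry no replicate error and no test between conditions was possible. Strain, genotype and the number of animals behind each RNA are not given in the sources used here, and all samples were whole back skin with no allele or agent named.

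miRNAs are short RNAs cut from a hairpin precursor. Bases 2 to 8 from the 5′ end, the seed, pair with target mRNAs, and either arm of the hairpin can be retained as the mature product. miR-223 is known as a myeloid miRNA that is abundant in neutrophils and also present in monocytes, where it restrains granulocyte maturation and inflammatory signalling. miR-142 is made in nearly all blood cell lineages and both of its arms are used in leukocytes, while miR-150 is abundant in mature lymphocytes and is known to repress the transcription factor c-Myb. Neutrophils are the first leukocytes to enter a skin wound, followed by monocytes and macrophages, and T cells and mast cells are resident in intact skin.

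The mature sequences are shown because the array measures each arm by its own probe, and because they let the arms of 1 hairpin be compared. They are RefSeq entries on GRCm38.p6, found for 5 of the 6 members, and for these 5 the target sequence in the array file was identical. The seed is in capitals.
mmu-miR-223-3p: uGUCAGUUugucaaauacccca
mmu-miR-223-5p: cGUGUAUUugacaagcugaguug
mmu-miR-142a-5p: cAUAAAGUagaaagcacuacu
mmu-miR-142a-3p: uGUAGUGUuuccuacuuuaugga
mmu-miR-150-3p: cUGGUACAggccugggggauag

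miR-223-3p lies at chrX:96242884-96242905 and miR-223-5p at chrX:96242842-96242864, both on the plus strand, within the long non-coding RNA gene F630028O10Rik. miR-142a-5p at chr11:87756867-87756887 and miR-142a-3p at chr11:87756903-87756925 are on the plus strand of chromosome 11, where the only gene that overlaps Mir142 is Mir142b on the opposite strand. miR-150-3p is at chr7:45121798-45121819 on the plus strand, and Mir150 overlaps no other gene in the RefSeq table. The arms of 1 gene do not share a seed, and no other miRNA on the array has the seed of miR-223-3p, miR-223-5p, miR-142a-5p, miR-142a-3p or miR-150-3p. miR-5127 shares bases 2 to 8 with miR-150-5p and was scanned at 59.7 to 102 intensity units, above the detection level on 2 arrays.

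Levels are given as the scanned intensity in linear units, the mean of the 2 spots of a probe, before normalization. A miRNA was called detected on an array where this mean was above the 95th percentile of its 4 empty spots. This level was 105 on aged D0, 58.3 on aged D3, 61.1 on aged D5, 99.0 on aged D7 and 107 on young D0, and a miRNA above 2 times it was called bright. The number of detected miRNAs ran from 589 on aged D0 to 1768 on aged D3, with 199 miRNAs bright on all 5 arrays. Intensities of different probes are not comparable, since probes bind their targets with unequal strength. Beside the skin label, 7 epithelial miRNAs were read (the miR-200 family, miR-203-3p and miR-205-5p). All 7 were detected on every array, and all 7 were bright except on aged D5, where 6 were. Because 498 miRNAs were detected on all 5 arrays, detection alone cannot identify the tissue. A lower level in whole skin can come from fewer cells of a type or from less RNA per cell, and these cannot be told apart.

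miR-223-3p, the main arm of the myeloid miRNA, was scanned at 197 on aged D0, 2804 on aged D3, 1338 on aged D5, 2155 on aged D7 and 2387 on young D0. It was detected on all 5 arrays and bright on 4 of them, with aged D0 just under the bright level. Its 2 spots differed by at most 4.51% of their mean. On the normalized log2 scale its levels were 7.95, 11.88, 11.08, 10.97 and 9.99 in the same order. After normalization aged D3 was highest, aged D5 and aged D7 lay within the spread of the repeat spots of each other, young D0 was below both, and aged D0 was lowest.

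The opposite arm, miR-223-5p, gave 89.4 on aged D0, 99.4 on aged D3, 68.6 on aged D5, 111 on aged D7 and 93.2 on young D0. It was below the detection level on aged D0 and young D0 and was bright on 0 arrays. Its highest signal relative to the detection level was on aged D3, 99.4 against 58.3.

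miR-142a-5p, 1 of the 2 blood-lineage arms of Mir142, was scanned at 121 on aged D0, 570 on aged D3, 275 on aged D5, 614 on aged D7 and 878 on young D0. It was detected on all arrays, on aged D0 by a narrow margin, with spots of 118 and 123 against a detection level of 105. Its normalized log2 levels were 6.89, 9.497, 8.60, 9.02 and 8.78. Aged D3 was highest beyond the repeat-spot spread, aged D7, young D0 and aged D5 did not differ from their neighbours in the order beyond it, and aged D0 was lowest.

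miR-142a-3p, the other arm, was at 87.6 on aged D0, below the detection level of 105. It was at 179 on aged D3, 86.9 on aged D5, 408 on aged D7 and 700 on young D0. On aged D5 it was detected but not bright. Young D0 and aged D7 had the highest normalized levels (8.47 and 8.42 on the log2 scale), followed by aged D3 at 7.77 and aged D5 at 6.89. After quantile normalization the highest array was thus aged D3 for the 5p arm and young D0 or aged D7 for the 3p arm. This difference between the arms rests on the normalization, since by scanned intensity both were highest on young D0 (878 and 700).

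miR-150-5p, the lymphocyte miRNA, was scanned at 372 on aged D0, 335 on aged D3, 512 on aged D5, 674 on aged D7 and 1603 on young D0, and was bright on all 5 arrays. Its 2 spots agreed less well than those of miR-223-3p, with a gap of up to 32.5% of their mean on aged D5. Its normalized log2 levels of 9.04, 8.61, 9.60, 9.15 and 9.41 spanned less than 1 unit. Aged D3 was lowest, below each of the remaining 4 arrays by more than 2 SD of the repeat spots. Aged D5 was also above aged D0 and aged D7 beyond that spread, and young D0 above aged D0, whereas aged D5 and young D0, young D0 and aged D7, and aged D7 and aged D0 did not differ beyond it.

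miR-150-3p, the opposite arm, gave 85.6 on aged D0, 77.1 on aged D3, 63.3 on aged D5, 100.3 on aged D7 and 102 on young D0. It was below the detection level on aged D0 and young D0 and bright on 0 arrays. Of the 6 members, 3 were detected on aged D0, 4 on young D0 and 6 on each wound array. Among all 1900 miRNAs, 589 were detected on aged D0 and 691 on young D0. The wound arrays detected 1768 on aged D3, 1071 on aged D5 and 1559 on aged D7, so these member counts followed the arrays. The arms with low values thus enter the wound comparisons only through the wound arrays.

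**Figure D1:**
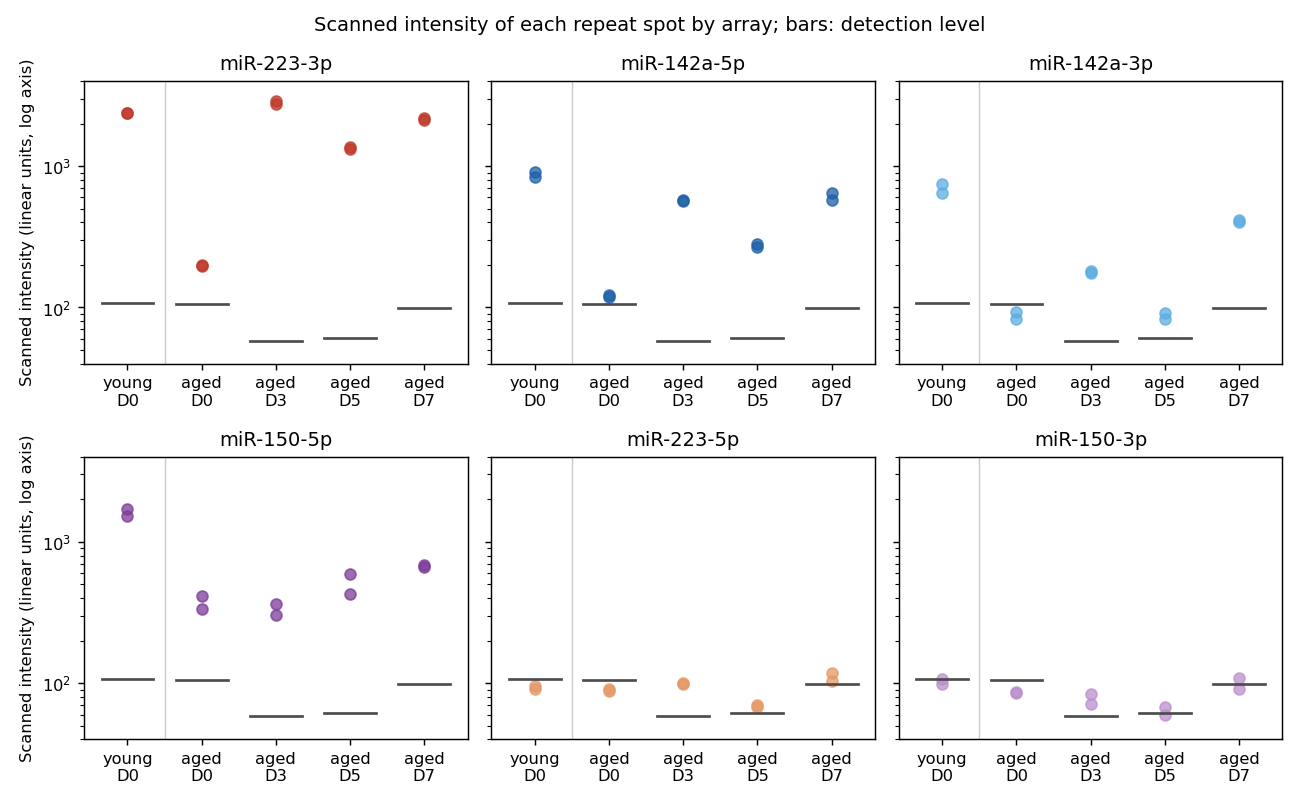
Scanned intensity (linear units on a log axis) of the 6 members on the 5 arrays, with 1 point for each of the 2 repeat spots and a short grey bar at the detection level of each array. miR-223-3p is at 197 on aged D0 and 2804 on aged D3, whereas miR-223-5p and miR-150-3p stay under 2 times the bars throughout.

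The first question was how the members differed between the wound and unwounded skin of aged mice. Ratios were taken after normexp background correction and quantile normalization, and the spread given is the SD of the log2 ratio between repeat spots, 0.14 for aged D3, 0.13 for aged D5 and 0.25 for aged D7 against aged D0. This spread covers the spots of an array and not animals. Where 1 of the arrays did not detect a miRNA, the ratio is a bound (at least N-fold) against the lowest detected signal or the probe's own signal, whichever was higher.

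On day 3, miR-223-3p was 15.3-fold higher than in unwounded aged skin, with 14.9 and 15.7 from the separate spots. Of the 345 miRNAs bright on at least 1 of the 2 arrays, 2 had a larger ratio. miR-142a-5p was 6.11-fold higher, with 6 of the 345 above it, and miR-142a-3p was at least 2.39-fold higher. miR-150-5p was at 0.743 of its unwounded level. The ratio of miR-223-5p was at least 1.32 and that of miR-150-3p at least 1.03. Thus 3 of 6 members were at least 2-fold higher and 0 lower, beside 3.27% of the 1772 detected miRNAs higher and 2.65% lower, or 16.8% and 12.8% of the bright ones. The 207 miRNAs bright on both arrays had a median ratio of 0.781 on day 3, and relative to it miR-223-3p was 19.6-fold and miR-142a-5p 7.83-fold higher.

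On day 5, miR-223-3p was 8.76-fold higher than in unwounded aged skin (8.49 and 9.04 from the separate spots), and 0 of the 296 bright miRNAs had a larger ratio. miR-142a-5p was 3.28-fold higher, with 7 miRNAs above it. miR-142a-3p, scanned at 86.9 against 87.6 on aged D0, had a bound of at least 1.30-fold after quantile normalization, and its direction was not stable, with a measured ratio of 1.06 with the 5S probes as the scale and 0.826 with the spike controls. miR-150-5p was 1.48-fold higher, beyond the spread of the repeat spots over all bright miRNAs but under 2-fold. Pairing its spots in order gave 1.41 and 1.54. Within an array its normalized log2 spots lay further apart, at 9.38 and 9.83 on aged D5 and 8.88 and 9.20 on aged D0. Hence 2 of 6 members were called higher and 0 lower, beside 2.69% and 2.41% of 1079 detected miRNAs, or 9.8% and 8.45% of the bright ones.

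On day 7, miR-223-3p was 8.14-fold higher (8.03 and 8.25 from the separate spots), with 2 of 309 bright miRNAs above it. miR-142a-5p was 4.39-fold higher with a wider gap between spots, 3.96 and 4.85. miR-142a-3p was at least 3.75-fold higher, its largest wound difference. miR-150-5p was 1.08-fold its unwounded level, with 0.951 and 1.23 from the separate spots, so no difference was seen beyond the spot error. In all, 3 of 6 members were called higher and 0 lower, beside 2.3% and 1.73% of 1565 detected miRNAs, or 11.7% and 8.09% of the bright ones. The 3 wound comparisons and the age comparison share the aged D0 array, so a low value on that array raises all 3 wound ratios and lowers the age ratio together.

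**Figure D2:**
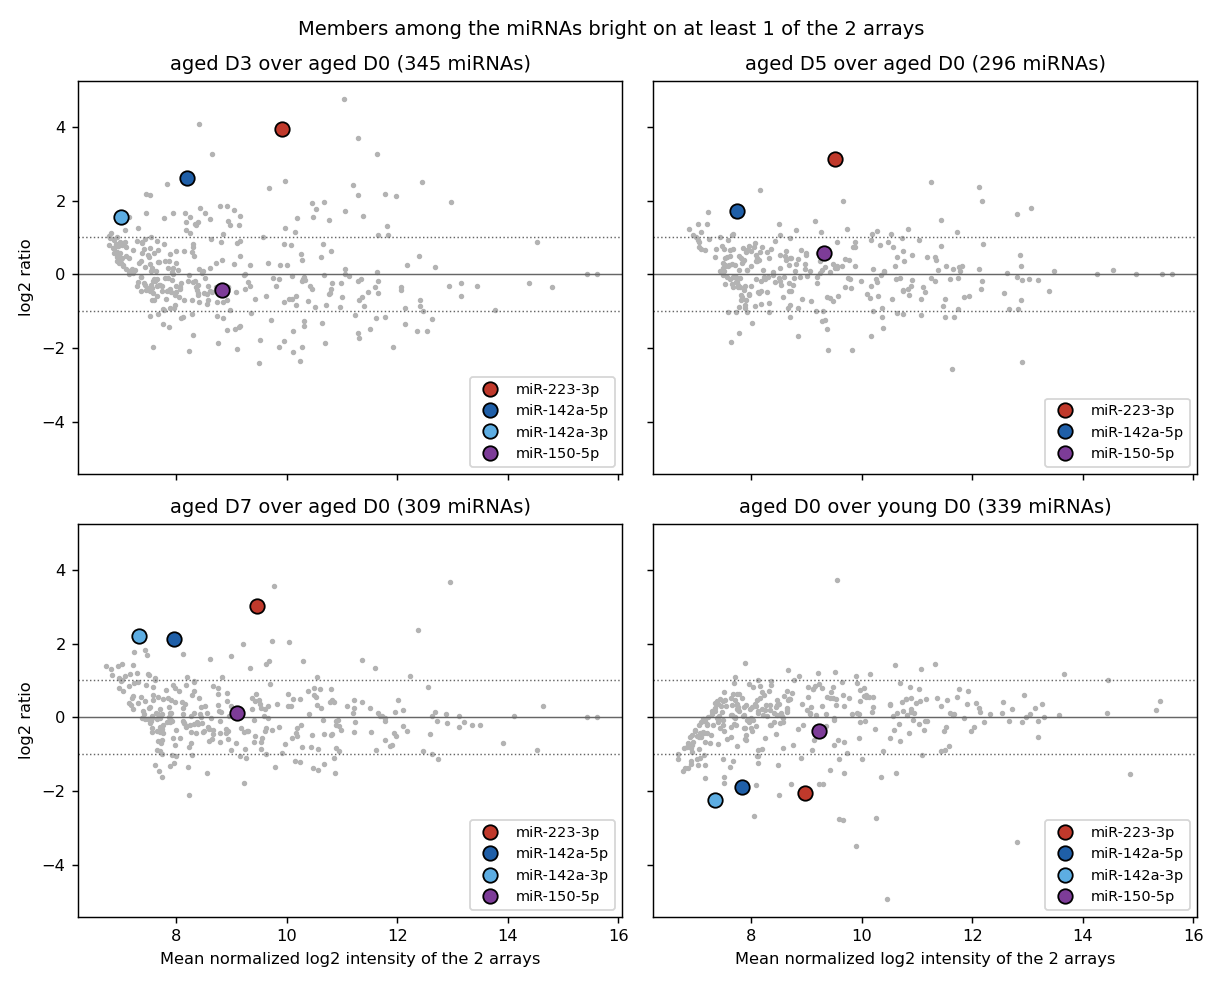
Log2 ratio against mean normalized log2 intensity for the miRNAs bright on at least 1 of the 2 arrays of each comparison (grey points), with the members in colour, a solid line at no difference and dotted lines at 2-fold. miR-223-3p and miR-142a-5p are near the upper edge in the 3 wound panels and near the lower edge in the aged over young panel, and miR-150-5p stays within the dotted lines. For miR-142a-3p the measured ratio is plotted although aged D0 did not detect it.

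Comparison of the wound arrays with each other does not use aged D0. On day 5 miR-223-3p was at 0.573 of its day 3 level, miR-142a-5p at 0.536 and miR-142a-3p at 0.543. None of them passed 2-fold after quantile normalization, and in 5, 6 and 3 of 13 other settings they did, with ranges of 0.469 to 0.605, 0.468 to 0.584 and 0.286 to 0.626. miR-150-5p was 1.99-fold higher on day 5 (1.85 and 2.13 from the separate spots), with 22 of 354 bright miRNAs above it. No member was called on day 5 over day 3, beside 1.19% of 1771 detected miRNAs higher and 1.58% lower, or 5.93% and 7.91% of the bright ones. From day 5 to day 7 the arms of Mir142 differed in size of change, with miR-142a-3p 2.89-fold higher and miR-142a-5p 1.34-fold higher. miR-142a-3p was the 1 member called, beside 1.88% higher and 1.19% lower of 1597, or 9.2% and 5.83% of the bright ones. Over the same interval miR-223-3p was at 0.929 of its day 5 level, within the spread between spots, and miR-150-5p at 0.731. Against day 3, day 7 had miR-223-3p at 0.532 and miR-142a-5p at 0.717, and higher ratios of 1.57 for miR-142a-3p and 1.45 for miR-150-5p, with 0 of 6 members past 2-fold beside 2.06% higher and 2.95% lower of 1798, or 9.97% and 14.3% of the bright ones.

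The second question was whether unwounded skin differed with age. In aged D0, miR-223-3p was at 0.243 of its level in young D0, that is 4.12-fold lower, and 9 of the 339 bright miRNAs had a lower ratio. miR-142a-5p was 3.73-fold lower, with 10 miRNAs below it, and miR-142a-3p at least 3.89-fold lower. miR-150-5p was at 0.774, with 0.726 and 0.826 from the separate spots, which exceeds the spot error but not 2-fold. Both low arms, miR-223-5p and miR-150-3p, were detected on neither array and give no ratio. Of the 4 members that could be compared, 3 were called lower and 0 higher, beside 5.26% of 779 detected miRNAs lower and 2.31% higher, or 12.1% and 4.72% of the bright ones. The 210 miRNAs bright on both arrays had a median ratio of 1.16, relative to which miR-223-3p stood at 0.210, miR-142a-5p at 0.232 and miR-150-5p at 0.670.

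The order of the wound and the young array depended on the member. miR-223-3p was above its young D0 level on all 3 wound arrays after normalization, miR-142a-5p on aged D3 beyond the repeat-spot spread, and miR-142a-3p on none of them. For miR-223-3p this order rests on the normalization, since by scanned intensity only aged D3 (2804) was above young D0 (2387), and for miR-142a-5p no wound array was above young D0 in scanned intensity.

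The aged D0 and young D0 arrays had unlike distributions of intensity, with 210 and 339 bright miRNAs, and the size of the age difference depended on how the arrays were put on 1 scale. Over 13 alternative settings the ratio of miR-223-3p ran from 0.0760 to 0.279 and that of miR-142a-5p from 0.118 to 0.461, at least 2-fold lower in all 13. That of miR-142a-3p was at most 0.420. For miR-150-5p the range was 0.214 to 0.790, below 1 in all 13 and at least 2-fold lower in 4, so whether it counts among the lower miRNAs is set by the scaling.

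For the wound comparisons miR-223-3p was at least 2-fold higher in 13 of 13 settings on each day, at 9.27 to 28.6 on day 3, 5.14 to 13.7 on day 5 and 6.68 to 12.9 on day 7. miR-142a-5p ran from 3.10 to 15.0 on day 3, 1.78 to 7.22 on day 5 and 3.05 to 10.2 on day 7, under 2-fold only on day 5 with the spike controls as the scale. The measured ratio of miR-142a-3p reached 2-fold in 11 of 13 settings on day 3, 3 on day 5 and 13 on day 7. miR-150-5p ran from 0.588 to 1.23 on day 3, where its direction turned with scaling to the median probe, from 1.04 to 1.85 on day 5 and from 1.07 to 2.10 on day 7. In the 13 settings that rank all 5 arrays, quantile normalization included, aged D0 was the lowest for miR-223-3p and miR-142a-5p. Aged D3 was the highest for miR-223-3p in 12 and for miR-142a-5p in 9, young D0 being highest for the latter in 4. Between days 3 and 5 the lower level of miR-223-3p and the higher level of miR-150-5p (1.499 to 2.23) kept their direction in all 13, and so did the higher miR-142a-3p on day 7 over day 5 (2.28 to 6.62). The day 7 over day 5 ratio of miR-223-3p ran from 0.883 to 2.14 and had no stable direction.

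**Figure D3:**
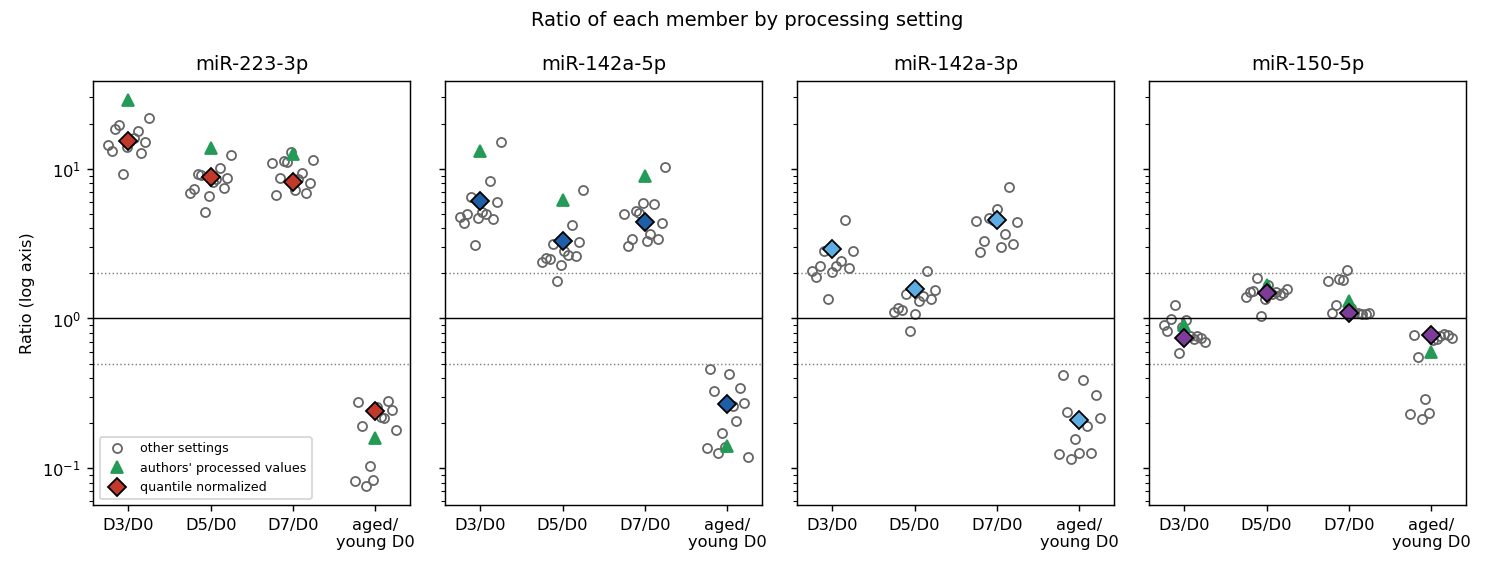
Ratio (log axis) of 4 members in the 3 wound comparisons and in aged over young unwounded skin, with the quantile normalized value as a diamond, the deposited processed values as triangles and the remaining settings as open circles. Dotted lines mark 2-fold. For miR-142a-3p the deposited processed values and the subtraction of empty spots are not drawn, because its aged D0 value is then at the floor. All values of miR-223-3p lie above 5 in the wound comparisons and below 0.3 in the age comparison.

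A second set of values was the processed intensities as deposited. In these miR-223-3p was at 142.2 on aged D0, 4066 on aged D3, 1953 on aged D5, 1795 on aged D7 and 896 on young D0. The order of the arrays was that of the quantile normalized values. For miR-150-5p they were 395, 354, 656, 518 and 658, again a narrow range with aged D3 lowest.

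The probe for miR-142b, the miRNA of the opposite strand of the Mir142 locus, was read as well because its sequence overlaps both miR-142a arms. miR-142b is the reverse complement of 20 bases of miR-142a-3p, and shares a run of 10 bases with miR-142a-5p, shown here in capitals.
mmu-miR-142a-5p: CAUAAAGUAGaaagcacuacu
mmu-miR-142b: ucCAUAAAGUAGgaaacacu
miR-142b was scanned at 93.2 on aged D0, 62.9 on aged D3, 54.1 on aged D5, 103.9 on aged D7 and 77.3 on young D0, bright on none.

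Other miRNAs of leukocytes and inflammation were read from a list of 11, which includes miR-155-5p and miR-146a-5p of activated leukocytes, miR-342-3p and miR-181a-5p of lymphocytes and miR-511 of macrophages. At least 2-fold higher were 1 of 11 detected on day 3 (miR-21a-5p, 5.70-fold), 2 of 9 on day 5 (miR-21a-5p, 3.95-fold, and miR-155-5p, 2.01-fold) and 2 of 11 on day 7 (5.17-fold and 2.22-fold). 0 were 2-fold lower in any of these, and 0 of 9 were called either way in aged over young unwounded skin. The list's median of measured ratios was 1.14, 1.06, 0.983 and 0.855 in these 4 comparisons. On day 3 this median ran from 0.707 to 2.09 over the 13 other settings, and with age from 0.419 to 1.53. With bounds, the medians on days 3 and 7 were 1, because a bound that fell on the other side of 1 was entered as 1. The same rule set the median over all detected miRNAs to 1 in each comparison, so that value is not a measure to compare with. After quantile normalization miR-21a-5p, a miRNA raised in many damaged tissues, was thus past 2-fold on all 3 wound days. miR-155-5p was so on days 5 and 7, and in 3 and 8 of 13 other settings. The remainder of the list was under 2-fold in these comparisons, but this too depended on the setting. On day 3 miR-155-5p and miR-146b-5p were each at least 2-fold higher in 4 of 13 other settings. Below 1 in all 13 were miR-146a-5p, miR-181a-5p and miR-212-3p on day 3, and miR-146a-5p, miR-146b-5p, miR-181a-5p and miR-511-3p on day 5. miR-146a-5p was at 0.536 on day 3 after quantile normalization and as low as 0.298 in another setting. Above 1 in all 13 were miR-21a-5p on both days, miR-146b-5p on day 3 and miR-155-5p on day 5. In aged over young skin miR-132-3p was at least 2-fold higher in 5 of 13 other settings and miR-212-3p in 4, both above 1 in all 13. By contrast, miR-21a-5p, miR-146b-5p, miR-342-3p and miR-511-3p were below 1 in all 13. Their ratios fell as low as 0.213, 0.196, 0.230 and 0.248, so a lower level with age was not particular to the members.

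Marker miRNAs of other cell types moved along with these comparisons. The erythroid list, read as a sign of blood in the sample, had a summed scanned intensity of 2034 on aged D0, 982 on aged D3, 1284 on aged D5, 1178 on aged D7 and 2496 on young D0. These sums are before background correction and normalization. miR-451a, the red cell miRNA, was at 0.601, 0.927 and 0.437 of aged D0 on days 3, 5 and 7, and miR-486a-5p at 0.236, 0.4496 and 0.233, whereas miR-144-3p was detected only on aged D3. The ratios of miR-451a and miR-486a-5p were below 1 in all 13 other settings on each wound day. The part of blood in the ratios of the members was not tested. In aged over young unwounded skin, miR-451a was 2.28-fold and miR-486a-5p 2.00-fold higher after quantile normalization, but this direction turned with the scaling, with ranges of 0.762 to 2.78 and 0.675 to 2.46 over the 13 settings.

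The 7 epithelial miRNAs had a median ratio of 0.428, 0.536 and 0.571 on days 3, 5 and 7, with 5, 3 and 0 of them at least 2-fold lower. miR-200c-3p went the other way on day 3, at 2.10-fold higher. In aged over young skin the epithelial median was 1.45, with miR-205-5p 2.27-fold higher, and over the 13 other settings this median ran from 0.450 to 1.64. The 4 skeletal muscle miRNAs had medians of 0.294, 0.512 and 0.516 on the wound days, with 4, 1 and 2 of them at least 2-fold lower, and 0.966 in aged over young skin. The 3 fibroblast miRNAs had medians of 0.786, 1.29 and 2.17, with 2 of 3 at least 2-fold higher on day 7, and 1.04 with age. Of the 2 endothelial miRNAs, the 1 that was detected was at 0.714, 1.17 and 1.02. With age, the muscle median ran from 0.439 to 1.60 over the 13 other settings and the fibroblast median from 0.354 to 1.29. The median of the 2 endothelial miRNAs ran from 0.191 to 1.81 with age. On day 5 the fibroblast median was above 1 in 10 settings and below 1 in 3, and the endothelial ratio in 7 and 6. Whether tissue makeup differed between the arrays, and what part it had in the ratios of the members, was not tested.

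**Figure D4:**
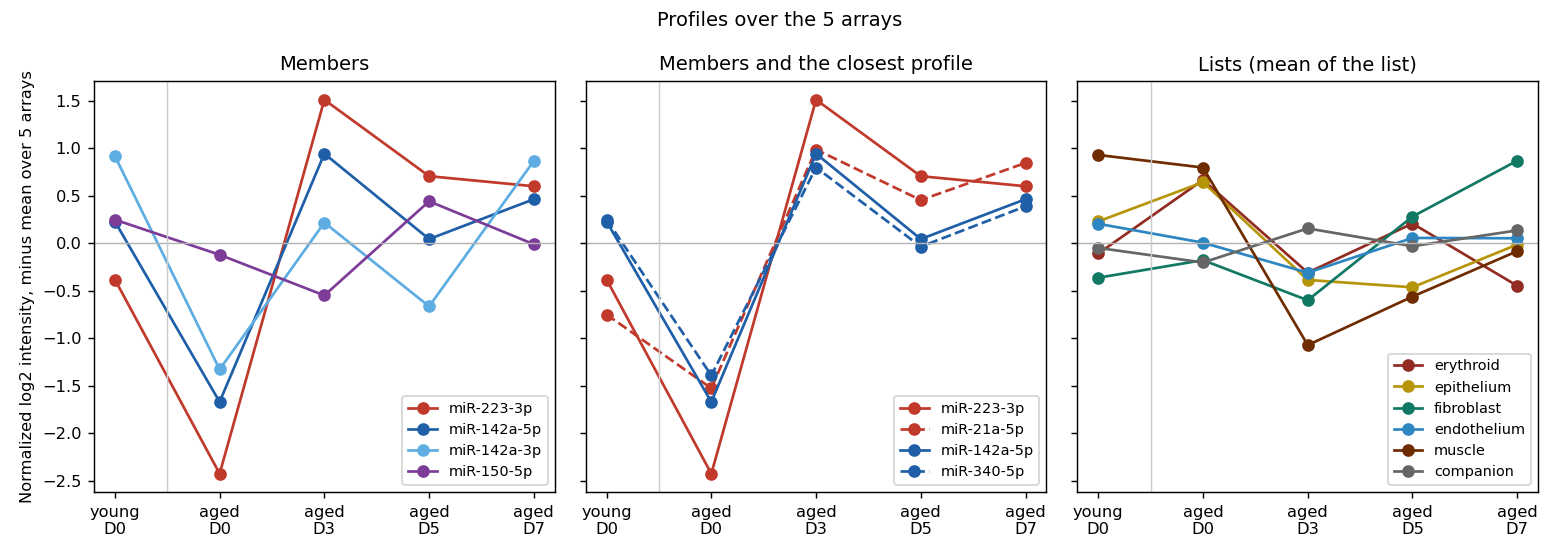
Normalized log2 intensity minus its mean over the 5 arrays, for 4 members (left), for miR-223-3p and miR-142a-5p with the miRNA closest to each (middle) and for the mean of each cell type list (right), by array. miR-223-3p and miR-142a-5p have their lowest point on aged D0 and their highest on aged D3, while the muscle and epithelial lists are higher on both unwounded arrays than on aged D3.

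Among the 395 other miRNAs that were bright on at least 1 array, the profile over the 5 arrays most like miR-223-3p was that of miR-21a-5p, with a root mean square difference of 0.52 log2 units against a median of 1.39. miR-665-3p and miR-340-5p followed at 0.72 each. miR-142a-5p lay at 0.59 from miR-223-3p, with 1 other miRNA closer, miR-142a-3p at 1.14 with 62 closer, and miR-150-5p at 1.44 with 229 closer. The closest to miR-142a-5p was miR-340-5p at 0.15, followed by miR-1894-3p at 0.47 and miR-706 at 0.49, against a median of 0.97. miR-340-5p was scanned at 96.1 on aged D0, 314 on aged D3, 147 on aged D5, 331 on aged D7 and 480 on young D0, and its longest run in common with miR-142a-5p is 6 bases. miR-142a-3p was 0.60 from miR-142a-5p, with 9 others closer, so the 2 arms of Mir142 were not each other's nearest profile. Likeness over 5 single arrays is a description of these arrays alone.

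Base composition moved with the day 3 ratios. The GC content is 40.9% in miR-223-3p, 33.3% in miR-142a-5p and 34.8% in miR-142a-3p, against 54.5% in miR-150-5p and 63.6% in miR-150-3p. Among miRNAs bright on both arrays, those of at most 42.9% GC had a median day 3 ratio of 0.656 (n = 54) and those of at least 61.4% GC a median of 1.53 (n = 52). The 3 members that were higher on day 3 thus have low GC content, in the range where the median of the bright miRNAs was below 1. The part of base composition in the ratios of the members was not tested. The gap between these groups was smaller on day 5 (0.907 and 1.16), on day 7 (0.982 and 1.03) and in aged over young skin (1.04 and 1.26).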

How the data were processed

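Total RNA of 5 back skin samples was hybridised to single-colour miRNA arrays by a service provider (LC Sciences) after an adaptor was ligated to the RNA. The deposited scanner files hold 1 intensity per spot, 2 spots per miRNA, with the local background columns empty. The authors also deposited 1 processed intensity per miRNA, and how it was normalized is not given in the sources used here. No column of per-sample values was left out. Intensities were corrected with normexp (offset 50, limma 3.58.1, R 4.3.3), control spots removed, log2 values quantile normalized over the 5 arrays and the spots averaged. A ratio of at least 2-fold was called, with a bound where 1 array did not detect the miRNA. No p-value was computed, because each condition has 1 array. The number of arrays limits the precision. The background correction and normalization were tested on arrays simulated from aged D0 alone, with some bright miRNAs raised. That test did not cover the unlike intensity distributions of the real arrays, the detection rule or the bounds. The members and all lists were chosen with earlier results of these data known. The 6 members are named whatever their values, lists by their counts, and for miR-223-3p and miR-142a-5p the 3 closest profiles. Alternatives comprised 8 scalings between arrays, 4 background corrections, the authors' values, other detection filters, thresholds of 1.5-fold and 3-fold, and each spot alone. Sequences and positions are from RefSeq (GRCm38.p6), matched by name for 1618 of 1900 miRNAs. Tables were handled in Python 3.11.15 with pandas 2.3.3 and numpy 2.4.6.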

Additional observations from a re-analysis of the deposited data

How the results depend on the processing

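In the comparisons with unwounded skin, no count of called members changed direction. The authors' processed values gave 5 of 6 members at least 2-fold higher on day 3, 5 on day 5 and 5 on day 7, since arms at the detection level have processed values near the floor of 1 on aged D0, and scaling to the spike controls gave 1 on day 5. The remaining counts of these 4 comparisons stayed within 1.5 times the main count. The counts between wound days were less stable, under alternatives that for these comparisons were chosen after seeing the data. Day 5 over day 3, with 0 members called, gave 2 lower without normalization or with cyclic loess, median or 5S scaling. Offset 16 also gave 2, miR-142a-3p lower and miR-150-5p higher. Subtraction of empty spots gave 5 and a threshold of 1.5-fold gave 4, all lower except miR-150-5p. The authors' values gave 5 lower. Day 7 over day 5, with 1 called, gave 2 higher without normalization or with 5S scaling, 3 higher with the spike controls and 0 at 3-fold. The authors' values gave 2, miR-142a-3p higher and miR-150-3p lower. Subtraction gave 3, of which 2 were lower and 1 higher. Day 7 over day 3, with 0 called, gave 1 without normalization, miR-142a-3p higher. Cyclic loess and centring on bright miRNAs also gave 1, but this was miR-223-3p lower. Spike and 5S scaling gave 2 higher, miR-142a-3p and miR-150-5p, and subtraction gave 2 lower. A 1.5-fold threshold gave 2, miR-142a-3p higher and miR-223-3p lower, and the authors' values gave 3 lower. The cause was not tested. The share of all miRNAs called under each alternative is not given, so the counts in this section describe the members alone. Each of the 40 single ratios was also taken under every alternative for the values and from each spot alone. Of the resulting values, 292 lay at least the SD of the repeat spots away from the main ratio and 308 did not. The signals of miR-223-5p and miR-150-3p lay too near the empty spots to say whether these arms changed. No paired analysis was possible because only 1 array was made per condition, and for the same reason no array could be left out.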
